A study of Mus musculus with 68 samples.

Results

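Duodenal tumours of ApcMin mice heterozygous for Cftr were compared with normal duodenum of Apc wildtype mice. The comparison used 6 of the 23 intestinal specimens of the study, which sequenced RNA to find genes and pathways that go with Cftr deficiency in the presence and absence of the Apc mutation. The compared specimens were chosen by their labels, as the 2 heterozygous duodenal tumours and the 4 specimens of normal duodenum read in the first of 2 sequencing runs. Genes on the X and Y chromosomes were left out.

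All mice were C57BL/6 animals aged 3 months. Both tumours, called tumour 1 and tumour 2, are labelled as duodenal tumours of ApcMin mice with a CFTR knockdown, the study's term for heterozygotes, and both carry 1 animal number. The construct of their Cftr allele is not given in the sources used here. Normal duodenum came from 2 Apc wildtype mice labelled CFTR knockout, in which a floxed Cftr gene is cut by a Cre recombinase under the Villin promoter of intestinal epithelium, and from 2 Apc and Cftr wildtype mice. The normal specimens are labelled as epithelium, whereas the design text describes whole duodenum from which the villi had been removed. Tumours and normals thus differ at once in Apc genotype, in Cftr genotype, in animal and in how the tissue was taken, and these cannot be told apart.

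Apc holds down Wnt signalling by marking beta-catenin for destruction. When it is lost, as happens in adenomas of ApcMin mice, beta-catenin binds TCF/LEF factors on DNA and keeps crypt genes on, among them inhibitors that feed back on the pathway. Cftr, the anion channel mutated in cystic fibrosis, secretes chloride and bicarbonate across the crypt epithelium, and in the duodenum the bicarbonate meets acid from the stomach. The healthy duodenum absorbs sugars, fat, iron and calcium, and it makes hormones such as gastric inhibitory polypeptide and cholecystokinin.

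Short stretches of promoter are shown first because they belong to genes of the pair of pathways described below that moved in opposite directions, Wnt targets upwards and interferon-stimulated genes downwards. Each holds the 120 bases before the gene's start, from RefSeq on build GRCm38.p6, read along the gene's strand. Capitals mark the letters of the interferon-stimulated response element, searched as TTTC, any 2 bases and TTTC on either strand, in the first 4, and of the TCF/LEF motif, CTTTGAA or CTTTGAT on either strand, in the last. In Isg15 the 3 matches overlap. The Igtp stretch also holds the TCF/LEF letters CTTTGAA, left in lower case because only the interferon motif is marked there.
Isg15, chr4:156200819-156200938, minus strand: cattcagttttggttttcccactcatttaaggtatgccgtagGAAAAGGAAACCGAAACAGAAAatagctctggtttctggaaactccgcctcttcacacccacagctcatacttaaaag
Oas3, chr5:120777660-120777779, minus strand: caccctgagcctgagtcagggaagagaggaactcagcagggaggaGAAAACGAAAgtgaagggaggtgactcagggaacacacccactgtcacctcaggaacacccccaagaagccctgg
Ifit1, chr19:34640769-34640888, plus strand: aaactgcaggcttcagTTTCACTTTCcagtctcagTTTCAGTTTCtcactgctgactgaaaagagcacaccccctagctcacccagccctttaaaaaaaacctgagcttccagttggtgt
Igtp, chr11:58199436-58199555, plus strand: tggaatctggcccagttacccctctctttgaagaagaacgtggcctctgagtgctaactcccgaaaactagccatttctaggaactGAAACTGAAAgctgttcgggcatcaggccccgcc
Sp5, chr2:70474803-70474922, plus strand: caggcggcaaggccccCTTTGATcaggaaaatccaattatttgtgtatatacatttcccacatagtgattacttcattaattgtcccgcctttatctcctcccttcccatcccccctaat

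The interferon motif occurred in 13 of the 18 interferon-stimulated genes of the list used below that have a promoter in the RefSeq table, against 3.99% of all 27025 genes with one (3.44% of 32851 promoters), each promoter covering 250 bases before and 50 after the start. It was in all 9 of those genes that fell in the tumours and in 4 of the 9 that did not pass the test. The TCF/LEF motif was in 3 of 19 beta-catenin target genes (Sp5, Mmp7 and Tiam1) and in 0 of 11 Wnt feedback genes with a promoter entry, against 9.88% of all genes with one (8.65% of promoters). A match is a run of letters and not a measured binding site.

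Before any group comparison, the specimens were checked against their labels with genes that mark the segments of the gut. Fabp6, the bile acid carrier of ileal enterocytes (chromosome 11, 43596049 to 43601540, minus strand), was at 1.00 FPKM in tumour 1 and 13740 FPKM in tumour 2, against 0.127 to 1.18 FPKM in the 4 normal specimens. FPKM scales the fragments of a gene by transcript length and library size. Tumour 2 was thus far above every other duodenal specimen, and the 4 ileum tumours of other ApcMin mice, read in the second run, held 53.8 to 10030 FPKM.

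The same pattern ran through other genes of the distal small intestine. Slc10a2, the ileal bile acid importer, was at 1.11 FPKM in tumour 1 and 165 FPKM in tumour 2, against 0.270 to 0.690 FPKM in normal duodenum. Fgf15, the hormone that ileal cells release on bile acid uptake, was at 0.0934 and 63.6 FPKM in the tumours and was listed at 0 in all 4 normal specimens. Of 13 distal genes, 13 were higher in tumour 2 than in tumour 1 and 13 were above every normal specimen in tumour 2.

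Proximal genes went the other way in tumour 2. Pdx1, the transcription factor of the proximal duodenum and pancreas, was at 2.84 FPKM in tumour 1 and 0.0357 FPKM in tumour 2, against 5.67 to 12.9 FPKM in normal duodenum. Lactase (Lct) was at 141 and 2.36 FPKM in the tumours and at 180 to 274 FPKM in normals. Of 13 proximal genes, 10 were lower in tumour 2 than in tumour 1, and 9 were below every normal specimen in tumour 2, against 8 in tumour 1. The transcripts of tumour 2 therefore go against its label as duodenum, and the library labelled tumour 2 is treated as such. Against normal duodenum, the lists below are counted with both tumours and, where calls were made, with each tumour alone. Tumour 1 departed from normal duodenum in some colonic genes, a trait not particular to it. Of 5 colonic genes, 3 were above every normal specimen in tumour 1 and 2 in tumour 2, and 1 was below in each. Hoxb13 was at 5.52 and 2.72 FPKM in the tumours, against 0.0698 to 0.476 FPKM in normals. Car1 was at 12.0 and 0.92 FPKM in the tumours, against 0.427 to 2.23 FPKM in normals. Hoxd10, also above the normals in tumour 1, was near 0 there, at 0.318 FPKM. In 2 duodenal tumours of Apc wildtype mice, Hoxb13 was at 11.0 and 0.123 FPKM and Car1 at 18.8 and 0.421 FPKM.

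**Figure D1:**
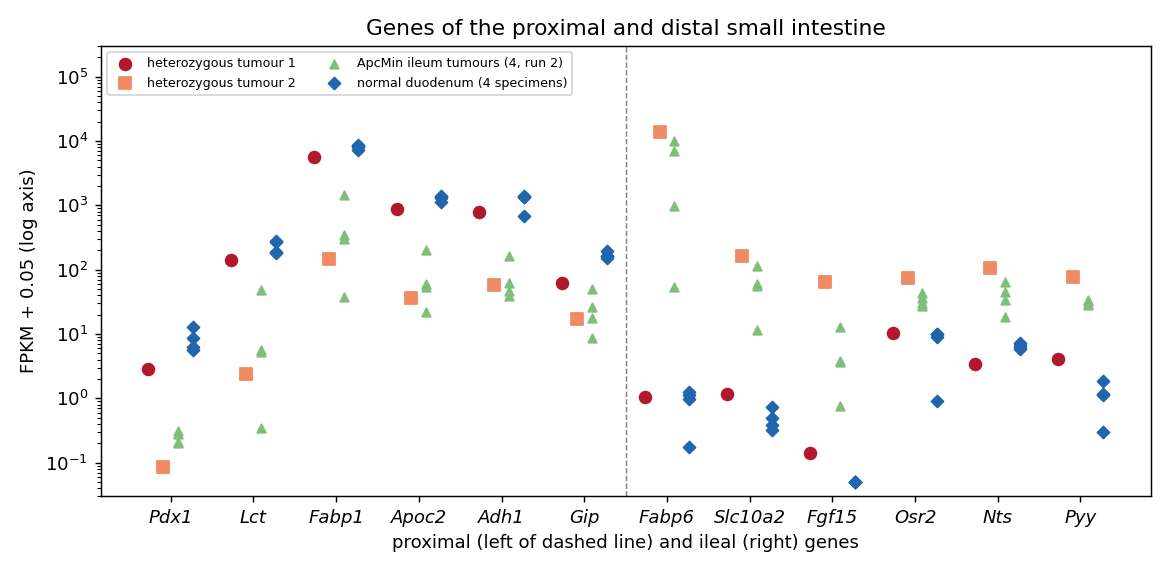
FPKM (log axis, 0.05 added so that 0 can be drawn) of 6 proximal and 6 ileal genes in heterozygous tumour 1, heterozygous tumour 2, 4 ApcMin ileum tumours of the second run and 4 normal duodenum specimens, 1 point a specimen. Tumour 2 sits above the ileum tumours for the 6 ileal genes and within or below their range for the 6 proximal genes, whereas tumour 1 lies near or moderately below normal duodenum.

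Other features of the libraries set limits of the same kind. Across the 12 columns of these specimens, 2 lanes each, FPKM sums ran from 636901 to 800262, 27.6% to 29.8% of values were 0, and relative depth lay between 0.785 and 1.01. Xist, which marks female tissue, was at 28.4 and 24 FPKM in the tumours and at most 0.0585 FPKM in normals, and Y-linked Eif2s3y was at 1.08 and 0 FPKM in the tumours and at 43.3 to 48.3 FPKM in normals, so sex cannot be told apart from tumour status either. The wildtype duodenum specimens differed from each other by an SD of 0.103 on the log2 scale, less than the 0.111 expected from their lanes, and were counted as 1 sample. The heterozygous tumours differed by 0.639 where 0.104 was expected, and the knockout duodenum specimens by 0.424 where 0.10 was expected. The 2 duodenal tumours of Apc wildtype mice, used for a comparison at the end, differed by 0.507 where 0.124 was expected. Tumour 1 differed from the first of these by 0.364 where 0.107 was expected. It was thus nearer to that tumour of another genotype and animal number than to tumour 2. No other pair across these genotypes was compared in this way. Knockout duodenum 1 held RNA of the exocrine pancreas, with Prss2, a trypsinogen, at 185 FPKM against 0.0755 FPKM in knockout duodenum 2, and a summed level of 22 acinar genes of 2491 FPKM. The same sum was 304 and 582 FPKM in the tumours and 194 and 432 FPKM in the other normal samples. Most of these smaller sums was Clps, which is also in the Paneth cell list. Clps was at 184 and 511 FPKM in the tumours and 142 and 373 FPKM in the other normal samples. Prss2 was at 0.0595 and 0.0615 FPKM in the tumours.

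Each gene was tested as log2(FPKM + 1) with limma in 2 tumours against 3 normal samples, within a fit of 13 samples of the first run that share an estimate of spread. A gene passed at a Benjamini-Hochberg adjusted p under 0.05 over all genes tested, and changes are log2 differences on that scale, which understates changes of low genes. An exact permutation test of 2 against 3 samples cannot go below p = 0.1, so the limma p-values rest on the shared spread, and with 1 animal number behind both tumours they do not measure the spread between tumour-bearing animals. In what follows, tumour values are in the order tumour 1 and tumour 2, and normal values in the order knockout duodenum 1, knockout duodenum 2 and wildtype duodenum.

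Of 13352 genes tested, 2674 (20.0%) passed, 1327 of them higher in the tumours (9.94%) and 1347 lower (10.1%). The median change over all genes was 0.00105. With tumour 1 as the only tumour 2186 genes passed (16.4%), 8.30% higher and 8.10% lower. With tumour 2 alone 3024 genes passed (22.7%), 12.5% higher and 10.1% lower. Of the 1327 rises, 638 also passed in each tumour alone, and of the 1347 falls, 570 did. Between the tumours, 753 of the tested genes (5.64%) differed by 2-fold or more, against 264 (1.98%) between the knockout duodenum specimens. Among the falls, 79 differed that much between the tumours, and in all 79 tumour 2 was the lower one.

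**Figure D2:**
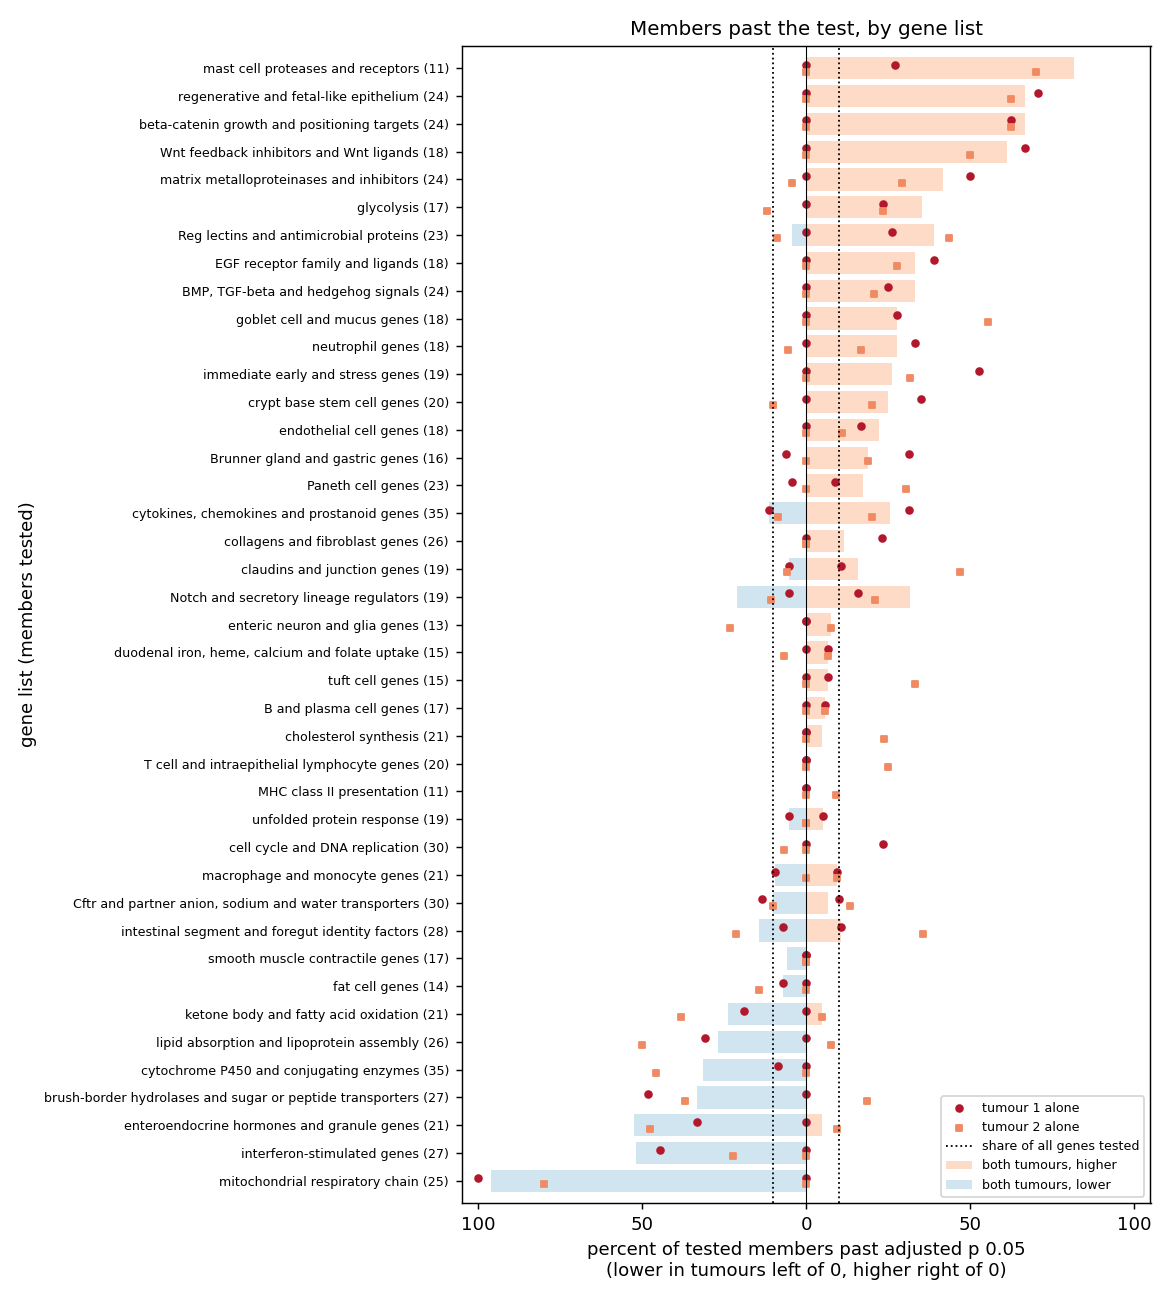
Percent of the tested members of each gene list that passed the test, higher in tumours to the right and lower to the left. Bars use both tumours, red circles tumour 1 alone, orange squares tumour 2 alone, and dotted lines mark the 9.94% and 10.1% of all genes tested. Shares are of members that passed the filter on low values, which favours rises in lists that are low in normal duodenum. Mast cell, regenerative and Wnt lists reach farthest to the right and the respiratory chain farthest to the left, where 24 of 25 members fell.

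The targeted genes come first. Cftr (chromosome 6, 18170687 to 18322768, plus strand) was at 51.7 and 22.1 FPKM in the tumours, against 31.5, 45.7 and 30.6 FPKM in normal duodenum. The tumour values lie on both sides of the normal ones and the groups overlap, with a log2 change of -0.06 (SE 0.34, adjusted p = 0.92). The knockout specimens were not lower than wildtype. Apc was at 14.1 and 13 FPKM in the tumours, against 9.42, 11.8 and 10.1 FPKM in normals. All tumour values were above all normal ones, but the difference did not pass (log2 change 0.35, SE 0.13, adjusted p = 0.098). FPKM of a whole gene does not show which allele was read, so these values do not check the genotypes.

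Wnt feedback inhibitors were among the highest rises. Notum, a secreted enzyme that strips the lipid from Wnt proteins (chromosome 11, 120653788 to 120661175, minus strand), was at 85.6 and 48.7 FPKM in the tumours, against 0.117, 0.0787 and 0.314 FPKM in normal duodenum. It was near 0 in every normal sample and high in both tumours (log2 change 5.81, SE 1.08, adjusted p = 0.0082). Wif1, which binds Wnt proteins outside the cell (chromosome 10, 121033960 to 121100650, plus strand), was at 48.0 and 41.6 FPKM in the tumours, against 0.0625, 0.256 and 0.241 FPKM in normals (log2 change 5.27, SE 0.48, adjusted p = 0.00048). The groups did not overlap for either gene.

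Inside the cell, Nkd1, which binds Dishevelled, was at 57.2 and 33.3 FPKM in the tumours, against 3.06, 3.56 and 3.83 FPKM in normal duodenum (log2 change 3.32, adjusted p = 0.020). Axin2, the scaffold of the destruction complex and a standard readout of beta-catenin, was at 32.9 and 31.4 FPKM in the tumours, against 10.3, 14.1 and 13.7 FPKM in normals (log2 change 1.29, SE 0.24, adjusted p = 0.0077). Rnf43, a ligase that removes Wnt receptors, was at 27.6 and 20.6 FPKM, against 9.82, 8.61 and 10.1 FPKM in normals (log2 change 1.24, SE 0.12, adjusted p = 0.00069). The groups did not overlap for any of them. Znrf3, a ligase like Rnf43, rose as well (log2 change 0.96, adjusted p = 0.015). Znrf3 and Nkd1 did not pass with tumour 2 alone (adjusted p = 0.059 and 0.074).

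Over the list of Wnt feedback inhibitors and ligands, 11 of 18 tested members rose and 0 fell, with a median change of 1.02. Fits of tumour 1 alone gave 12 rises and fits of tumour 2 alone gave 9. Quantile normalisation left 11 rises and brought 2 falls, so the absence of falls depends on the scaling. Of 13 members that reached 1 FPKM in a normal sample, 6 rose. Other rises were Wnt6, a ligand (1.32, adjusted p = 0.0051), Dkk2, a secreted modulator (1.63, adjusted p = 0.0034) and Apcdd1, a membrane-bound inhibitor (1.20, adjusted p = 0.014).

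Among beta-catenin targets, 16 of 24 tested members rose and 0 fell (median 1.02), with 15 rises in each tumour alone. Of 21 that reached 1 FPKM in a normal sample, 14 rose. Prox1, a homeobox factor of intestinal adenomas, was at 21.3 and 8.73 FPKM in the tumours, against 0.345, 0.483 and 0.536 FPKM in normals (log2 change 3.34, adjusted p = 0.0052). Lef1 was at 2.70 and 2.59 FPKM, against 0.645, 0.0677 and 0.263 FPKM in normals, so this DNA partner of beta-catenin was higher in both tumours (1.48, adjusted p = 0.0028). Its relative Tcf7 rose by 1.59 (adjusted p = 0.0040). Sp5, whose promoter is shown above, was at 24 and 12.4 FPKM, against 7.12, 6.66 and 8.54 FPKM in normal duodenum (1.12, adjusted p = 0.012).

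Further targets that rose were the crypt positioning receptor Ephb3 (1.91, adjusted p = 0.012), Cd44, a hyaluronan receptor (1.22, adjusted p = 0.010), the transcription factors Sox4 (1.63, adjusted p = 0.0059) and Sox9 (1.29, adjusted p = 0.016) and the cell cycle regulator Ccnd1 (0.92, adjusted p = 0.0054). The phospholipase Pla2g2a, which lies at a modifier locus of ApcMin tumours, was at 294 and 194 FPKM in the tumours, against 21.4, 26.7 and 32.0 FPKM in normals (3.13, adjusted p = 0.0013). Myc, the best known growth target, did not pass. It was at 28.4 and 19.4 FPKM in the tumours, against 16.6, 21 and 17.6 FPKM in normals, with overlapping groups (0.34, SE 0.18, adjusted p = 0.22). Ccnd2 and Tcf7l2 did not pass either (-0.07, adjusted p = 0.90, and -0.23, adjusted p = 0.49).

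**Figure D3:**
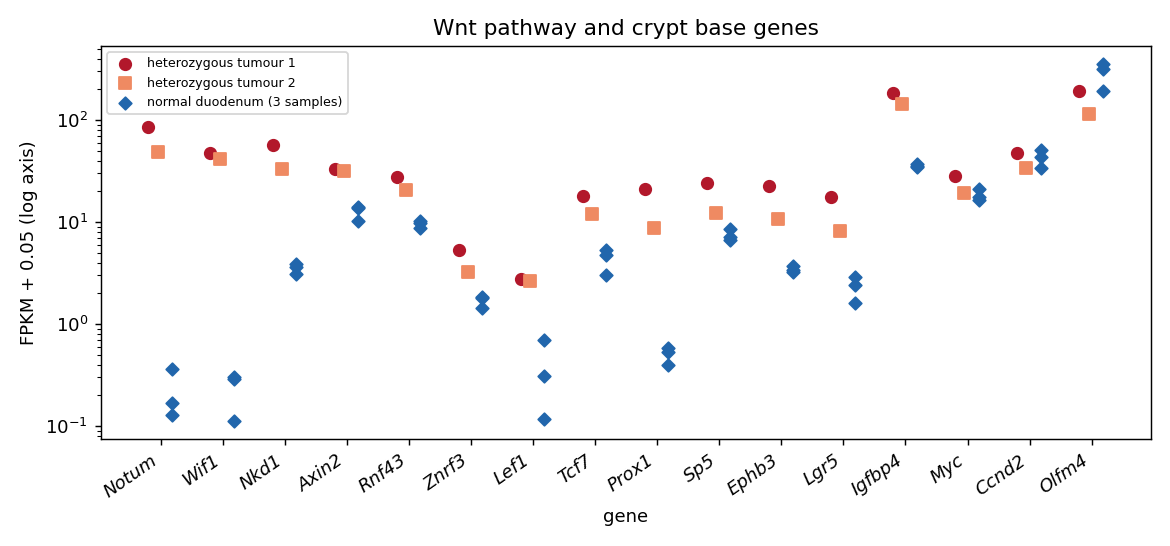
FPKM (log axis, 0.05 added) of Wnt pathway and crypt base genes in heterozygous tumours 1 and 2 and in the 3 normal duodenum samples, 1 point a sample. Notum, Wif1 and Prox1 are separated by the widest gaps, Myc and Ccnd2 overlap, and Olfm4 lies at or below the normal samples.

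Crypt base stem cell genes split. Lgr5, the receptor that marks crypt base stem cells, was at 17.6 and 8.04 FPKM in the tumours, against 1.57, 2.36 and 2.84 FPKM in normal duodenum (2.01, SE 0.40, adjusted p = 0.010). Olfm4, the most abundant of these markers, was at 191 and 114 FPKM in the tumours, against 193, 317 and 356 FPKM in normals. Both tumours were below every normal sample for Olfm4, without passing the test (-0.91, SE 0.32, adjusted p = 0.080), whereas for Lgr5 both were above. In bulk tissue, fewer cells of a type and less RNA per cell cannot be told apart, here and for every cell type below. In all, 5 of 20 tested members rose and 0 fell (median 0.28), with 7 rises in tumour 1 alone and 4 rises and 2 falls in tumour 2 alone. Igfbp4 (2.17, adjusted p = 0.00012), Prom1 (1.76, adjusted p = 0.0044) and Tnfrsf19 (2.20, adjusted p = 0.015) also rose, while Ascl2 and Smoc2 did not pass (adjusted p = 0.084 and 0.53).

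Cell cycle genes did not pass as a group. By limma 0 of 30 passed, with a median of -0.0021, when both tumours were used. Mki67, the proliferation antigen, was at 20.4 and 14.4 FPKM in the tumours, against 18.2, 21.8 and 20.8 FPKM in normals (-0.22, adjusted p = 0.35). In tumour 1 alone 7 rose, among them Cdk1 (0.48, adjusted p = 0.031) and Mcm4 (0.49, adjusted p = 0.029), and with tumour 2 alone 2 fell. Whether crypt share differs between the tumours and the normal tissue, whose villi the design text describes as removed, was not tested.

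Genes of regenerative and fetal-like epithelium, which appear in crypts repairing damage, rose in 16 of 24 tested members, and 0 fell (median 2.00). The count was 17 with tumour 1 alone and 15 with tumour 2 alone. Of 20 members that reached 1 FPKM in a normal sample, 12 rose. S100a6, a calcium-binding protein (chromosome 3, 90612882 to 90624181, plus strand), was at 1277 and 1053 FPKM in the tumours, against 87.1, 98.0 and 66.4 FPKM in normal duodenum (3.79, SE 0.16, adjusted p = 1.5e-05). Clu, the secreted chaperone that marks revival stem cells (chromosome 14, 65968483 to 65981547, plus strand), was at 680 and 381 FPKM, against 60.8, 9.62 and 19.5 FPKM in normals (4.42, SE 0.87, adjusted p = 0.010). Both tumours were above every normal sample for either gene, and for Clu knockout duodenum 1 was the highest normal.

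The annexins, which bind membranes in a calcium-dependent way, rose by unequal amounts in the tumours. Anxa8 was at 22.3 and 21.6 FPKM, against 0.153, 0.171 and 0.247 FPKM in normals (4.27, SE 0.22, adjusted p = 4.2e-05). Anxa1 was at 84.2 and 83.1 FPKM, against 6.83, 8.58 and 10.7 FPKM in normals (3.14, SE 0.19, adjusted p = 1.0e-04). Anxa10, a gastric annexin, was at 144 FPKM in tumour 1 and 9.12 FPKM in tumour 2, against 0.187 to 0.684 FPKM in normals, so it was higher in both but far higher in tumour 1 (4.71, SE 0.88, adjusted p = 0.0083). Epithelial keratins Krt7 (2.60) and Krt23 (3.55), the interleukin 1 antagonist Il1rn (3.02) and osteopontin Spp1 (3.95) all passed with adjusted p from 3.3e-05 to 0.00048. Ly6a, Il33 and Areg, which belong to the same list, did not pass (adjusted p = 0.13, 0.67 and 0.79).

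Brunner gland and gastric genes summed to 2953 and 3028 FPKM over 20 genes in the tumours, against 2426, 3385 and 2410 FPKM in normals, so the sums overlapped. Single members differed more, and of 13 that reached 1 FPKM in a normal sample 2 rose. Gkn3, a gastrokine, was at 551 and 92.5 FPKM in the tumours, against 9.93, 7.24 and 14.9 FPKM in normals (4.33, SE 1.22, adjusted p = 0.039). The mucin Muc6 of mucous neck cells and Brunner glands was at 32.9 and 4.61 FPKM, against 0.0478, 0.0653 and 0.0433 FPKM in normals (3.71, adjusted p = 0.036). Both had adjusted p over 0.05 with tumour 2 alone (0.17 and 0.16). Cathepsin E (Ctse) was at 192 and 47.4 FPKM, against 1.87, 1.72 and 1.19 FPKM in normals, and passed in each tumour alone (5.23, SE 0.49, adjusted p = 0.00054). In all 3 of 16 tested members rose and 0 fell, with 5 rises and 1 fall in tumour 1 alone and 3 rises in tumour 2 alone. Tff1, Tff2 and Gkn1 of the gastric surface ranged in normals from 0 to 14.2 FPKM and did not pass with both tumours, while Tff1 did with tumour 1 alone (adjusted p = 0.032).

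Apart from these lists, the highest rise belonged to Wfdc18, a secreted whey acidic protein domain factor, at 468 and 177 FPKM in the tumours, against 0.231, 1.02 and 0.230 FPKM in normals (7.64, SE 0.61, adjusted p = 0.00031). Slc38a4, an amino acid transporter known as an imprinted gene of placenta and liver, was at 111 and 39.5 FPKM, against 0.125, 0.127 and 0.218 FPKM in normals (5.86, SE 0.61, adjusted p = 0.00083). Plat, the tissue plasminogen activator, was at 84.0 and 55.6 FPKM, against 2.30, 2.27 and 2.92 FPKM in normals (4.31, SE 0.32, adjusted p = 0.00022). In each of these the tumours stood clear of all normal samples, with tumour 1 the higher. Bpifb1 and Bpifb5, neighbouring secreted proteins of the airway and gland type, were at 41.8 and 15.2 FPKM and at 81.9 and 29.1 FPKM in the tumours, and Bpifb1 was listed at 0 in every normal sample. Albumin (Alb), best known from liver, was at 38.7 and 16.7 FPKM in the tumours, against 0.321, 0.103 and 0.498 FPKM in normals (4.35, SE 0.39, adjusted p = 0.00048).

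Slc2a2 and Cyp1a1 were among the strongest falls. Slc2a2, the basolateral glucose and fructose exit transporter (chromosome 3, 28697903 to 28731359, plus strand), was at 77.8 and 5.86 FPKM in the tumours, against 218, 241 and 196 FPKM in normal duodenum (-3.23, SE 0.78, adjusted p = 0.023). Both tumours were below all normals, and tumour 2 was by far the lowest. It passed in each tumour alone, with -1.47 in tumour 1 and -4.99 in tumour 2. Cyp1a1, the dioxin-inducible P450 (chromosome 9, 57687928 to 57703824, plus strand), was at 0.0303 FPKM in tumour 1 and listed at 0 in tumour 2, against 27.2, 7.46 and 5.09 FPKM in normals (-3.48, SE 0.71, adjusted p = 0.012).

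Several genes that handle fructose and glucose fell. The apical sodium-glucose carrier Slc5a1 was at 375 and 501 FPKM in the tumours, against 1320, 1293 and 1067 FPKM in normals (-1.49, SE 0.20, adjusted p = 0.0023). The fructose importer Slc2a5 (-1.87), the fructose kinase Khk (-1.18), the gluconeogenic phosphatase Fbp1 (-2.18), trehalase (Treh, -1.92) and maltase-glucoamylase (Mgam, -1.05) fell too, with adjusted p from 0.0011 to 0.011. All of these passed in each tumour alone. In total 9 of 27 brush-border and sugar or peptide transport genes fell and 0 rose (median -0.67). With tumour 1 alone 13 fell and 0 rose, while with tumour 2 alone 10 fell and 5 rose.

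The lipid list behaved alike, with 7 of 26 members falling and 0 rising (median -0.63). The triglyceride enzyme Dgat1 was at 304 and 315 FPKM in the tumours, against 610, 493 and 539 FPKM in normals (-0.82, SE 0.11, adjusted p = 0.0023). Mttp, which loads fat onto lipoproteins, was at 475 and 298 FPKM, against 857, 870 and 900 FPKM in normals (-1.22, SE 0.19, adjusted p = 0.0039). Acsl5, which activates fatty acids, also fell (-0.73, adjusted p = 0.0037). Several abundant members hung on 1 tumour: Fabp1 was at 5556 and 149 FPKM in the tumours, against 8715, 7318 and 8324 FPKM in normals, and did not pass (adjusted p = 0.10). With tumour 1 alone 8 members fell and 0 rose, and with tumour 2 alone 13 fell and 2 rose.

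Detoxification genes fell in 11 of 35 tested members, 0 rose (median -0.85), but 3 fell with tumour 1 alone and 16 with tumour 2 alone. The glucuronosyltransferase Ugt2b34 was at 271 and 268 FPKM in the tumours, against 447, 402 and 500 FPKM in normals (-0.73, adjusted p = 0.0075), and passed in each tumour alone. Cyp2b10, induced through the receptor CAR, was at 91.8 and 7.07 FPKM, against 162, 154 and 301 FPKM in normals (-2.85, SE 0.85, adjusted p = 0.048), and did not pass with tumour 1 alone (adjusted p = 0.16). Cyp3a11 did not pass (-0.52, adjusted p = 0.63). Glutathione transferases Gsta1, Gsta2, Gm3776, Gstm1 and Gstm3 fell, but near-identical copies could share reads and their separate values are uncertain.

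Mitochondrial respiratory chain genes shifted nearly as a block. Of 25 tested members 24 fell and 0 rose, with a median of -0.62. All 25 fell with tumour 1 alone and 20 with tumour 2 alone. Sdhb, a subunit of complex II (chromosome 4, 140961203 to 140979193, plus strand), was at 293 and 283 FPKM in the tumours, against 554, 507 and 472 FPKM in normals (-0.82, SE 0.10, adjusted p = 0.0012). Cyc1 of complex III was at 398 and 350 FPKM, against 751, 697 and 624 FPKM in normals (-0.88, SE 0.11, adjusted p = 0.0014). The tumours agreed closely for these genes and lay below every normal sample. Atp5b of the ATP synthase fell by 0.54 (adjusted p = 0.0095), and Ppargc1a, a coactivator of mitochondrial genes, was at 5.65 and 6.52 FPKM, against 12.7, 13.1 and 12.0 FPKM in normals (-0.94, adjusted p = 0.017). Cox6c alone missed the threshold (-0.41, adjusted p = 0.051). With only the compared specimens in the fit, 14 of 25 passed.

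Glycolysis genes did not move as 1 group: 6 of 17 rose, 0 fell, and the median was -0.11. Each tumour alone gave 4 rises, and tumour 2 also 2 falls. The glucose importer Slc2a1 was at 37.3 and 28.9 FPKM in the tumours, against 12.8, 11.8 and 9.22 FPKM in normals (1.47, adjusted p = 0.00082). The first-step kinase Hk1 (1.22, adjusted p = 0.00022), Pfkl of the committed step (0.90, adjusted p = 0.0063) and the pyruvate dehydrogenase kinase Pdk1 (0.75, adjusted p = 0.0014) rose. Ldha and Pkm, the most abundant of the later enzymes named here, did not pass (adjusted p = 0.48 and 0.24). Quantile normalisation brought 1 fall.

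Enteroendocrine genes fell in 11 of 21 tested members, and 1 rose (median -0.61), with 7 falls in tumour 1 alone and 10 falls and 2 rises in tumour 2 alone. Gip, the incretin of duodenal K cells, was at 62.4 and 16.8 FPKM in the tumours, against 196, 165 and 156 FPKM in normals (-2.36, SE 0.42, adjusted p = 0.0067). Cck was at 26.6 and 14.1 FPKM, against 82.5, 70.6 and 71.7 FPKM in normals (-1.89, SE 0.23, adjusted p = 0.0015). Both passed in each tumour alone. Granule proteins Chga (-0.85, adjusted p = 0.020) and Chgb (-1.13, adjusted p = 0.0063) and the lineage factors Neurog3 (-0.78, adjusted p = 0.017) and Neurod1 (-0.55, adjusted p = 0.037) fell as well, although Chga, Neurog3 and Neurod1 did not pass with tumour 1 alone. The member that rose was Pyy, an ileal and colonic hormone, at 4.10 and 76.3 FPKM in the tumours, against 1.81, 1.13 and 0.613 FPKM in normals. It passed with both tumours (3.22, adjusted p = 0.041) and not with tumour 1 alone (adjusted p = 0.089).

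Goblet cell genes rose in 5 of 18 tested members and 0 fell (median 0.66). Agr2, which folds mucins, was at 1130 and 1105 FPKM in the tumours, against 443, 661 and 403 FPKM in normals (1.19, SE 0.20, adjusted p = 0.0059). Spink4 was at 4653 and 8226 FPKM, against 2598, 2745 and 2089 FPKM in normals (1.33, adjusted p = 0.0063), and the goblet cell factor Spdef rose by 1.15 (adjusted p = 0.010). The mucin Muc2 itself did not pass, at 96.6 and 278 FPKM in the tumours, against 123, 136 and 106 FPKM in normals (adjusted p = 0.51). Tumour 1 alone gave 5 rises and tumour 2 alone 10. Paneth cell genes rose in 4 of 23, with 2 rises and 1 fall in tumour 1 alone, 7 rises in tumour 2 alone and lysozyme Lyz1 not passing (-0.36, adjusted p = 0.58). The tuft cell gene Avil was the only one of 15 to rise (2.27, adjusted p = 0.0025), and 5 rose with tumour 2 alone.

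Among secretory and segment regulators, Foxa1, a forkhead factor of gut endoderm, stood out for its small spread (chromosome 12, 57540628 to 57546916, minus strand). It was at 18.9 and 20.0 FPKM in the tumours, against 3.91, 4.63 and 4.04 FPKM in normals (1.98, SE 0.08, adjusted p = 1.5e-05). Foxa3 rose by 1.09 (adjusted p = 0.00096), while Hnf4g, an enterocyte factor, fell by 0.76 (adjusted p = 0.0046). All 3 passed in each tumour alone. The intestinal master factors Cdx1 and Cdx2 did not pass (adjusted p = 0.87 and 0.57). Pdx1 passed as a fall with both tumours (-2.29, adjusted p = 0.049) but not with tumour 1 alone (-1.35, adjusted p = 0.25). Gata4 did not pass with both (-1.37, adjusted p = 0.060), at 52.5 and 13.5 FPKM in the tumours, against 66.0, 77.9 and 69.6 FPKM in normals.

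Interferon-stimulated genes fell in 14 of 27 tested members and 0 rose (median -0.63). In tumour 1 alone 12 fell and in tumour 2 alone 6. Isg15, a ubiquitin-like protein (chromosome 4, 156199424 to 156200818, minus strand), was at 29.3 and 28.9 FPKM in the tumours, against 81.8, 154 and 106 FPKM in normals (-1.89, SE 0.45, adjusted p = 0.021). Oas3, an RNA sensor, was at 4.27 and 6.60 FPKM, against 11.8, 23.8 and 17.2 FPKM in normals (-1.5, SE 0.29, adjusted p = 0.010). For both genes the tumours were below every normal sample, and knockout duodenum 2 was the highest. Isg15 did not pass in either tumour alone (adjusted p = 0.070 and 0.057).

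Oas2 (-1.32, adjusted p = 0.0034), Dhx58 (-1.14, adjusted p = 0.0063) and Ddx58 (-0.63, adjusted p = 0.0092), sensors of viral RNA, fell in each tumour alone. Ifit1, which binds viral RNA caps, was at 14.9 and 20.4 FPKM in the tumours, against 37.9, 38.4 and 49.5 FPKM in normals (-1.21, adjusted p = 0.022), and Igtp, an interferon gamma-induced GTPase, was at 13 and 20.6 FPKM, against 34.0, 31.2 and 35.7 FPKM in normals (-1.0, adjusted p = 0.019). Their promoters are shown above. The upstream regulators Irf1 and Irf7 did not pass (adjusted p = 0.95 and 0.40). The summed level of the 27 genes was 842 and 994 FPKM in the tumours, against 1390, 1461 and 1296 FPKM in normals. By limma 0 of 20 T cell genes passed with both tumours and 5 rose with tumour 2 alone, with sums of 197 and 519 FPKM in the tumours and 252 to 284 FPKM in normals; their part in the interferon result was not tested.

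**Figure D4:**
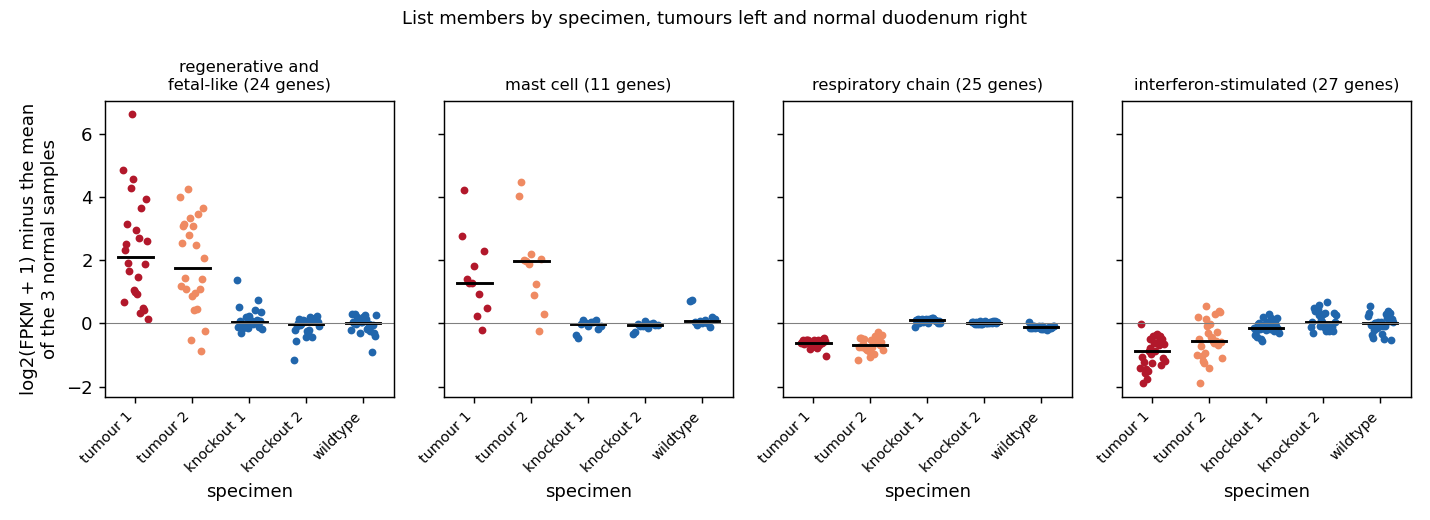
Each point is a gene of 4 lists, as log2(FPKM + 1) minus its mean over the 3 normal samples, in tumour 1, tumour 2, knockout duodenum 1, knockout duodenum 2 and wildtype duodenum; black bars are medians. The medians of regenerative and mast cell genes lie above those of the normals in both tumours, respiratory chain genes form a tight band below them, and the median of interferon-stimulated genes is lower in tumour 1 than in tumour 2.

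Of 15 mast cell genes 11 passed the filter on low values, and 9 of these rose. Of the 11, 5 reached 1 FPKM in a normal sample, and 3 of the 5 rose (Mcpt1, Mcpt2 and Il1rl1). The other 6 could enter the test only through samples outside normal duodenum, so their share of rises is partly set by the filter. Mcpt2, a protease of mucosal mast cells (chromosome 14, 56042041 to 56044642, plus strand), was at 33.8 and 41.0 FPKM in the tumours, against 0.383, 0.556 and 2.12 FPKM in normals (4.34, SE 0.42, adjusted p = 0.00061). Mcpt1 was at 24.3 and 60.3 FPKM, against 1.88, 1.99 and 5.05 FPKM in normals (3.40, adjusted p = 0.016), and the interleukin 33 receptor Il1rl1 was at 17.7 and 14.7 FPKM, against 2.41, 2.67 and 3.43 FPKM in normals (2.17, adjusted p = 0.00054). Both tumours were above every normal sample for each of these genes. The carboxypeptidase Cpa3 (2.00, adjusted p = 0.014) and the IgE receptor chain Fcer1a (1.08, adjusted p = 0.015) rose too, whereas Kit and Hdc did not pass (adjusted p = 0.22 for each). The summed level of 15 mast cell genes was 91.6 and 142 FPKM in the tumours, against 10.5, 10.3 and 16.7 FPKM in normals. With tumour 1 alone 3 members passed and with tumour 2 alone 7.

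Signs of neutrophils were narrower. S100a8, a subunit of calprotectin, was at 13.1 and 15.2 FPKM in the tumours, against 0.220, 0.244 and 0.203 FPKM in normals (3.63, SE 0.13, adjusted p = 1.5e-05), and its partner S100a9 rose by 3.09 (adjusted p = 0.00032). In all 5 of 18 neutrophil genes rose and 0 fell, with 6 rises in tumour 1 alone and 3 rises and 1 fall in tumour 2 alone, but only 7 of the 18 reached 1 FPKM in a normal sample. Of those 7, 3 rose. The sum of the neutrophil genes was 82.3 and 74.1 FPKM in the tumours against 30.9 to 38.8 FPKM in normals. The receptors Cxcr2 and Csf3r stayed under 1 FPKM in all of these samples. Macrophage genes gave 2 rises, Cd14 and Arg1, and 2 falls among 21, with the same number of each in tumour 1 alone and 2 rises in tumour 2 alone. B and plasma cell genes gave 1 rise, Sdc1, which epithelium also makes, among 17 (median -1.19), but 10 fell when knockout duodenum 2 was left out.

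Antimicrobial and acute-phase genes rose in 9 of 23 tested members and 1 fell, with 6 rises in tumour 1 alone and 10 rises and 2 falls in tumour 2 alone. Of 19 members that reached 1 FPKM in a normal sample, 7 rose. Lipocalin 2 (Lcn2) was at 82.0 and 45.3 FPKM in the tumours, against 2.09, 7.77 and 2.22 FPKM in normals (3.81, adjusted p = 0.0014). Saa3 (3.64, adjusted p = 0.00092) and the cornified envelope protein Sprr1a (4.01, adjusted p = 0.00032) rose in each tumour alone. Saa1 was at 17.1 and 258 FPKM, against 0.751, 14.2 and 0.520 FPKM in normals, and its rise (4.32, adjusted p = 0.049) was not seen with tumour 1 alone (adjusted p = 0.25). Reg3b, an antibacterial lectin, spanned 1459 to 30250 FPKM among the normals and 4154 to 12480 FPKM in the tumours and, like Reg3g, did not pass. Reg1 did not pass either, at 1241 and 8.85 FPKM in the tumours, against 5589, 2063 and 3105 FPKM in normals (adjusted p = 0.067).

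Of 35 cytokine, chemokine and prostanoid genes 9 rose and 4 fell, with 11 rises and 4 falls in tumour 1 alone and 7 rises and 3 falls in tumour 2 alone. Of the 24 that reached 1 FPKM in a normal sample, 3 rose. Neutrophil-attracting Cxcl5 was at 4.88 and 3.43 FPKM in the tumours, against 0.352, 0.262 and 0.394 FPKM in normals (1.93, adjusted p = 0.00083), and Cxcl1, Cxcl3, Ccl2, Ptgs2, Il11 and Il1b rose by 1.33 to 1.76, with adjusted p from 0.00069 to 0.031. Ccl25, which draws lymphocytes to the small intestine, was at 354 and 522 FPKM, against 692, 687 and 757 FPKM in normals (-0.72, adjusted p = 0.018), and interferon-induced Cxcl11 fell by 0.92 (adjusted p = 0.0047). Il1b, Il11 and Ccl25 did not pass with tumour 2 alone.

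Matrix-degrading enzymes rose in 10 of 24 members, with 0 falling (median 0.79). There were 12 rises in tumour 1 alone and 7 rises and 1 fall in tumour 2 alone. Of 16 that reached 1 FPKM in a normal sample, 6 rose. Mmp14, a membrane-bound collagenase, was at 65.8 and 38.4 FPKM in the tumours, against 22.8, 21 and 25.1 FPKM in normals (1.10, adjusted p = 0.0063). The matrilysin Mmp7 was at 279 and 527 FPKM, against 76.9, 121 and 116 FPKM in normals (1.89, adjusted p = 0.017), and did not pass with tumour 1 alone (adjusted p = 0.093). Collagen and fibroblast genes rose in 3 of 26 (6 with tumour 1 alone and 0 with tumour 2 alone, by limma), a share close to the 9.94% of all genes. Col1a1, at 50.1 and 20.7 FPKM in the tumours and 15.7, 15.3 and 15.9 FPKM in normals, passed with tumour 1 alone (adjusted p = 0.0056) and not with both (adjusted p = 0.062).

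Smooth muscle genes summed to 1047 and 1355 FPKM over 17 genes in the tumours, against 1638 to 1733 FPKM in normals. By limma 1 of 17 members passed, Mylk (-0.97, adjusted p = 0.030), while Acta2 and Des did not (adjusted p = 0.38 and 0.28). With only the compared specimens in the fit 9 fell. Endothelial genes rose in 4 of 18, and in 3 and 2 with tumour 1 and tumour 2 alone, including Prox1, already counted as a Wnt target, and also Sox17 (2.56, adjusted p = 0.027) and Cdh5 (0.98, adjusted p = 0.021). Of 16 endothelial members that reached 1 FPKM in a normal sample, 2 rose. Red cell genes summed to 213.5 and 170.5 FPKM over 6 genes in the tumours, against 31.7, 8.15 and 66.8 FPKM in normals. Both tumours were thus above every normal sample in that sum. Of 4 tested members 2 rose with both tumours, namely Hbb-b1 (4.06, adjusted p = 0.023) and Hba-a2 (3.50, adjusted p = 0.0058). Hba-a2 was at 21.2 and 39.6 FPKM against 0.0172, 2.53 and 4.19 FPKM in normals. Near-identical copies make the split between these genes uncertain. The changes with tumour 1 alone and tumour 2 alone were 3.83 and 4.29 for Hbb-b1 and 3.06 and 3.94 for Hba-a2. The part of these cell types in the other results was not tested.

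Of 18 members of the EGF receptor list 6 rose and 0 fell, with 7 rises in tumour 1 alone and 5 in tumour 2 alone, including Ereg, at 8.45 and 5.78 FPKM in the tumours, against 1.36, 1.87 and 1.44 FPKM in normals (1.65, adjusted p = 0.0043), Btc (1.42, adjusted p = 0.0061) and Tgfa (0.68, adjusted p = 0.0074). Etv4 and Etv5, transcription factors that respond to the same signals, rose by 1.69 and 2.94 (adjusted p = 0.0022 and 0.0043). In the list of BMP, TGF-beta and hedgehog signals 8 of 24 rose, 6 with tumour 1 alone and 5 with tumour 2 alone, with Id3, a BMP target, at 155 and 182 FPKM, against 92.3, 97.9 and 90.6 FPKM in normals (0.84, adjusted p = 0.00084), and Bmp7 rising by 1.54 (adjusted p = 0.0051). Of 20 members of that list that reached 1 FPKM in a normal sample, 6 rose. Inhba, an activin subunit, was at 4.30 and 0.974 FPKM, against 0.215, 0.208 and 0.233 FPKM in normals (1.41, adjusted p = 0.022).

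Among Cftr's partner transporters 2 of 30 rose and 3 fell, shares at or under those of all genes, with 3 rises and 4 falls in tumour 1 alone and 4 rises and 3 falls in tumour 2 alone. The calcium-activated chloride channel Ano1 was at 14.4 and 10.7 FPKM in the tumours, against 2.07, 2.76 and 2.59 FPKM in normals (1.96, SE 0.21, adjusted p = 0.00085). Slc26a9, an anion channel of the stomach, was at 2.57 and 0.891 FPKM, against 0, 0 and 0.0132 FPKM in normals (1.37, adjusted p = 0.012). The apical exchanger Slc26a6 was at 82.2 and 98.2 FPKM, against 207, 166 and 161 FPKM in normals (-0.97, adjusted p = 0.021), the guanylin receptor Gucy2c, which opens Cftr, fell by 0.52 (adjusted p = 0.0055) and the chloride channel Clcn2 fell by 0.39 (adjusted p = 0.027). Slc26a3 and Slc9a3 did not pass (adjusted p = 0.21 and 0.70). Of the junction genes, pore-forming Cldn15 was at 256 and 258 FPKM, against 596, 531 and 468 FPKM in normals (-1.04, adjusted p = 0.0089), and barrier-forming Cldn4 was at 157 and 133 FPKM, against 52.5, 29.3 and 25.1 FPKM in normals (2.06, adjusted p = 0.0022).

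Notch and secretory lineage genes moved both ways, with 6 of 19 rising and 4 falling, 3 and 1 with tumour 1 alone, and 4 and 2 with tumour 2 alone. The Notch ligand Jag2 was at 2.98 and 2.41 FPKM in the tumours, against 0.971, 1.08 and 1.08 FPKM in normals (0.85, adjusted p = 0.0034), while the ligand Dll1 of secretory progenitors was at 10 and 7.33 FPKM, against 13.7, 15.3 and 16.3 FPKM in normals (-0.75, adjusted p = 0.021). The groups did not overlap for either ligand. Among fatty acid oxidation and ketone genes 5 of 21 fell and 1 rose (4 falls in tumour 1 alone, 8 falls and 1 rise in tumour 2 alone), led by the peroxisomal enzyme Ehhadh (-1.17, adjusted p = 0.0022). Immediate early genes rose in 5 of 19, in 10 with tumour 1 alone and 6 with tumour 2 alone, with Jun, a subunit of AP-1, at 39.9 and 43.7 FPKM in the tumours, against 19.1, 17.5 and 14.9 FPKM in normals (1.24, adjusted p = 0.00054). Junction genes rose in 3 of 19 and fell in 1, while quantile normalisation gave 8 rises, tumour 1 alone 2 and tumour 2 alone 8. Other lists stayed near or below the shares of all genes, with 1 of 21 cholesterol genes rising, 1 of 15 iron and calcium uptake genes rising, 1 unfolded protein response gene of 19 in each direction, 1 of 14 adipocyte genes falling, 1 of 13 neuron and glia genes rising and, by limma, 0 of 11 MHC class II genes passing.

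Several named calls rested on 1 tumour, and those of Isg15, Mylk, Clcn2, Neurod1 and Hbb-b1 passed in neither tumour alone. With tumour 1 alone, Pdx1, Pyy, Saa1, Cyp2b10, Gsta1, Gm3776, Gstm1, Gstm3, Mmp7, Sox17, Mylk, Clcn2, Isg15, Mcpt1, Cpa3, Fcer1a, Chga, Neurog3, Neurod1, Hbb-b1 and Dll1 did not pass. With tumour 2 alone, Nkd1, Znrf3, Tnfrsf19, Gkn3, Muc6, Ppargc1a, Cdh5, Ifit1, Igtp, Isg15, Ccl25, Il1b, Il11, Mylk, Slc26a6, Clcn2, Hbb-b1 and Neurod1 did not pass. Bpifb5 could not be fitted with either tumour alone, because too few samples reached 1 FPKM.

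The counts depended on the control. Against the wildtype sample alone 560 genes passed, 364 higher and 196 lower. Of the lists, 12 regenerative genes, 5 beta-catenin targets, 2 Wnt feedback genes and 2 mast cell genes rose in that comparison, and 5 respiratory chain genes, 2 interferon-stimulated genes and 1 enteroendocrine gene fell, as did 1 Wnt feedback gene. Against the knockout specimens alone 1762 genes passed, 899 higher and 863 lower. There 16 regenerative genes, 15 beta-catenin targets, 11 Wnt feedback genes and 6 mast cell genes rose, and 24 respiratory chain genes, 8 interferon-stimulated genes and 6 enteroendocrine genes fell. Leaving out knockout duodenum 1, the specimen with pancreatic RNA, left 1543 genes.

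The heterozygous tumours were also set against the most alike specimens, 2 duodenal tumours of Apc wildtype mice labelled CFTR knockout, in the same fit. Of 13352 genes 96 (0.719%) passed, 80 higher in the heterozygous tumours (0.599%) and 16 lower (0.120%). With the duodenal groups alone in the fit 0 passed by limma, though 1663 had an unadjusted p under 0.05. Axin2 was at 32.9 and 31.4 FPKM in the heterozygous tumours, against 12.6 and 6.33 FPKM in the Apc wildtype tumours, and thus above both (1.73, adjusted p = 0.026). Wif1 was at 48.0 and 41.6 FPKM, against 7.26 and 0.914 FPKM in the Apc wildtype tumours (3.52, adjusted p = 0.025). Lef1, Dkk2, Foxa1 and Plat were likewise higher (1.52, 1.64, 0.70 and 2.63). Notum, at 85.6 and 48.7 FPKM against 29.3 and 0.0492 FPKM in the Apc wildtype tumours, did not pass (3.54, adjusted p = 0.18). Cftr did not pass (-0.84, SE 0.37, adjusted p = 0.28), at 51.7 and 22.1 FPKM in the heterozygous tumours, against 50.4 and 74.9 FPKM in the Apc wildtype tumours. In this limma contrast 3 of 18 Wnt feedback, 1 of 24 regenerative, 0 of 11 mast cell and 0 of 27 interferon-stimulated genes passed. In the Apc wildtype tumours the regenerative genes summed to 4922 and 5521 FPKM, mast cell genes to 117 and 71.4, and interferon-stimulated genes to 793 and 768. These 3 sums lay on the same side of all normal samples as in the heterozygous tumours.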

How the data were processed

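RNA of RNAlater-preserved tissue was column-purified, and libraries used its polyadenylated fraction, per the labels' protocols. TopHat2 (2.0.13), Cuffnorm and FastQC, with mm10 as the build, are listed in the submitters' processing notes. The authors deposited FPKM values, 1 column a lane, in a single table of 23356 genes and 68 columns. FPKM divides fragments by transcript length and library size, so counts and counting intervals were not computed, and depth limits mainly genes of low FPKM. From the table, 1066 rows of X- and Y-linked genes and rows with names turned into dates (27) were left out, and 134 symbols matched no annotation. Strand is not given in the sources used here, so overlapping genes and near-identical copies are uncertain.

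Columns were averaged per specimen as log2(FPKM + 1). The 15 first-run specimens less wildtype colon 2, with the wildtype duodenum pair averaged into 1 sample, gave 13 samples in 7 groups. Wildtype colon 2 was left out because an earlier analysis of these data found small-intestinal transcripts in its first-run library. Autosomal genes that reached 1 FPKM in 2 or more samples were tested with limma 3.58.1 in R 4.3.3 (eBayes with a trend), adjusted by Benjamini-Hochberg at 0.05. The test was checked on data simulated with independent noise in each sample. That check does not bear on the shared animal number, the gut segment or the sex of the tumours. The text names Cftr, Apc, the 15 strongest rises and falls past the threshold with separate groups and a higher mean of at least 5 FPKM, up to 6 members of a list with the smallest p, and members worth stating for their role. The 43 gene lists, the specimens and the tests were chosen with earlier results of these data known. Some genes that the rule takes are not reported here. Repeat fits used quantile normalisation, a pseudocount of 0.1, no filter on low values, other sets of samples or controls, a replicate block and each specimen left out. Chosen after seeing the data were leaving out the Apc wildtype duodenal tumours and counting the wildtype duodenum as 2 samples without a block. Replicate numbers did not pair the samples. Gene positions are from the GRCm38 (mm10) annotation.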

Additional observations from a re-analysis of the deposited data

Results flagged for a closer look

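The following log2 differences between the heterozygous tumours and the duodenal tumours of Apc wildtype mice labelled CFTR knockout passed the limma test of that difference at an adjusted p under 0.05 in the fit of 13 samples, and none passed with the duodenal groups alone in the fit. Higher in the heterozygous tumours were Bpifb5 (5.16), Slc38a4 (5.09), Bpifb1 (4.06), Alb (4.04), Wif1 (3.52), Plat (2.63), Axin2 (1.73), Dkk2 (1.64), Lef1 (1.52), Foxa1 (0.702) and Id3 (0.61). Lower were Chgb (-1.79), Neurog3 (-1.09) and the respiratory chain gene Ndufs1 (-0.493). Slc38a4 was at 111 and 39.5 FPKM in the heterozygous tumours, against 2.68 and 0.0590 FPKM in the Apc wildtype tumours. Chgb was at 43.0 and 25.7 FPKM in the heterozygous tumours, against 111 and 125 FPKM in the Apc wildtype tumours. Xist was high in both heterozygous tumours and in 1 of the 2 Apc wildtype tumours, and its part in these differences was not tested. Apc genotype, Cftr genotype and the gut segment genes of tumour 2 differ in this contrast too, and cannot be told apart.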

How the results depend on the processing

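Of 2674 genes that passed, the count lay between 1543 and 3024 when a specimen was left out, 790 to 1672 for rises and 753 to 1352 for falls. With the compared groups alone 1367 passed (742 higher, 625 lower), with the wildtype sample as the only control 560 (364 and 196), with the knockout specimens as the only control 1762 (899 and 863), and without the merged wildtype sample 1760 (899 and 861). Other settings stayed within 1.5 times: 2644 with a pseudocount of 0.1, 2558 without a filter, 2982 with quantile normalisation, 3050 with wildtype colon 2 included, 2820 without the Apc wildtype duodenal tumours and 3538 with the wildtype duodenum as 2 samples. The smaller counts go with fewer samples in the fit or the control; other causes were not tested. Same-numbered specimens did not deviate together (correlations of 0.028, 0.0159 and -0.0328), so the numbers do not pair them; with the replicate block 2162 genes passed, against 2622 in the same samples without it. Against the Apc wildtype tumours 96 genes passed, and 0 with the duodenal groups alone. Of 223 genes tested one by one for the text, 170 passed and 0 reversed while called; 68 passed under every alternative, and against the wildtype sample alone 97 no longer passed.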
